A study of Homo sapiens with 7 samples.

Results

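Open chromatin after mitochondrial poisoning was compared in the 4 of 7 ATAC-seq libraries whose deposited peak list had fewer than 60000 rows. The 4 libraries were chosen by the length of their own lists, which is a measured value. The stressed libraries 8 and 9 came from LUHMES neurons given antimycin A at 25 µM with oligomycin at 10 µM for 8 hours, and the vehicle libraries 6 and 7 from LUHMES neurons given DMSO. All were wild type and had been differentiated for 6 days in medium with dbcAMP at 1 mM, GDNF at 2 ng/mL and tetracycline at 1 µg/mL. LUHMES is 1 established human mesencephalic line, so these are batches of a single line and not separate donors. Each number names an independent differentiation, and no differentiation gave both a stressed and a vehicle library among these 4, so treatment and differentiation cannot be told apart here. The other 3 libraries, stressed 6, stressed 7 and vehicle 8, had longer lists and took no part in choosing regions. They serve as a further look at the regions, but not in separate differentiations. By number, stressed 6 and 7 share differentiations with vehicle 6 and 7, and vehicle 8 with stressed 8.

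ATAC-seq marks DNA that the Tn5 transposase can reach, which includes active promoters and enhancers. Antimycin A blocks respiratory complex III and oligomycin blocks the ATP synthase, a pairing that stops mitochondrial respiration and is widely used to depolarise mitochondria and start mitophagy. Cells answer such damage through the integrated stress response, in which phosphorylated eIF2alpha favours translation of the transcription factor ATF4, and ATF4 with C/EBP partners drives genes of amino acid supply. NRF2, released from KEAP1 under oxidative stress, drives antioxidant and iron-handling genes through antioxidant response elements.

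The 30000 regions of highest fold enrichment were kept in each library and merged into 52807 consensus regions. A region present in both stressed and neither vehicle short-list library is called stressed-only, and one with the reverse pattern vehicle-only. Of all consensus regions, 2208 (4.18%) were stressed-only and 1296 (2.45%) vehicle-only. These counts follow from the choice of regions and are given as a description, without a test. Within 1 kb of either end of a protein-coding gene, 537 of 19970 genes (2.69%) showed the stressed-only and 62 (0.31%) the vehicle-only pattern. Both patterns are strict, so they widen when 1 library is left out: to 7788, 8669, 4255 and 3925 stressed-only and 1980, 2703, 8101 and 8063 vehicle-only regions without stressed 8, stressed 9, vehicle 6 and vehicle 7. The gene counts became 1071, 949, 1150 and 1315 for stressed-only and 124, 280, 284 and 231 for vehicle-only ends. Absence means that a region ranked below the first 30000 of its library or was not listed. It does not mean closed chromatin. In these bulk libraries fewer cells with an open site and less opening per cell cannot be told apart.

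The starts of 5 integrated stress response genes, of the iron storage gene FTL and of the lysosomal protease gene CTSD carry much of what follows, so the 250 bases before each start are shown here. They are read 5′ to 3′ from RefSeq promoters on GRCh38.p14, which matches the hg38 build named for the files. Capitals mark the stress motifs found on either strand: the cAMP response element TGACGTCA, the AP-1 site TGANTCA, the C/EBP-ATF composite TGATGNAA, the core of the antioxidant response element TGACNNNGC and the E-box CACGTG. The windows are ATF4 (chr22:39520309-39520558, plus strand), CEBPB (chr20:50190333-50190582, plus strand), PPP1R15A (chr19:48872171-48872420, plus strand), SESN2 (chr1:28259268-28259517, plus strand), STC2 (chr5:173328415-173328664, minus strand), FTL (chr19:48965059-48965308, plus strand) and CTSD (chr11:1763928-1764177, minus strand).
ATF4: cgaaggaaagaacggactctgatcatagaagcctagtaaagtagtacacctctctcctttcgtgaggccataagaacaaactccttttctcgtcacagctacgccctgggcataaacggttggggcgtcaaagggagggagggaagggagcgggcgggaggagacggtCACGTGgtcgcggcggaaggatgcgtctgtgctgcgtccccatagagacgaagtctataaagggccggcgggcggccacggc
CEBPB: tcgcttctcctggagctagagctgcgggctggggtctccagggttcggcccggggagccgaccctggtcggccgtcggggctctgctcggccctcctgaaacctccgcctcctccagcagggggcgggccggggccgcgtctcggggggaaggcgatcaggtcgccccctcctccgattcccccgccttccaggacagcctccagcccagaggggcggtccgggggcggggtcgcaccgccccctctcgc
PPP1R15A: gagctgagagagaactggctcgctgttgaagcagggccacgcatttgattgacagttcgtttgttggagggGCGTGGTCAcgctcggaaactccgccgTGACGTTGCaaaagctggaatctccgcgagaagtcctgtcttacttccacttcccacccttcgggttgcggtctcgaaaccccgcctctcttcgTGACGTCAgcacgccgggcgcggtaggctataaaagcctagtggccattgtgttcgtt
SESN2: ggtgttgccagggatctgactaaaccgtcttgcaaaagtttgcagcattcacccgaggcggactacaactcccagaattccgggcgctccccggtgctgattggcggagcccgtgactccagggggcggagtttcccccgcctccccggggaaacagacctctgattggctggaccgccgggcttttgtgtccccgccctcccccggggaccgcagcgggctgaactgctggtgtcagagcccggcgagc
STC2: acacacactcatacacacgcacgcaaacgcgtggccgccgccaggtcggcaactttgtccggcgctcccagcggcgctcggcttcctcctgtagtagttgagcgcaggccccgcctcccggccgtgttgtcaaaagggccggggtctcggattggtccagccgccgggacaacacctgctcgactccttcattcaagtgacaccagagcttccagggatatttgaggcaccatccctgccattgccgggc
FTL: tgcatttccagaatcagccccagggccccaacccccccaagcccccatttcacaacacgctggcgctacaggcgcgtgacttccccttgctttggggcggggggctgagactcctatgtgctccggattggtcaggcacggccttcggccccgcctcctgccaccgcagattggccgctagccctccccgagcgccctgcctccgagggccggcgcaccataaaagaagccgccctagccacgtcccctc
CTSD: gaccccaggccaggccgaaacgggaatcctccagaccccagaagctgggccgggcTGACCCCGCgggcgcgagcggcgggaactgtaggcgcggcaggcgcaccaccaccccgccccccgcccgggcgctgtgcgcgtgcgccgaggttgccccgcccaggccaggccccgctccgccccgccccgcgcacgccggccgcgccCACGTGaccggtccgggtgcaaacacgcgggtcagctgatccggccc

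PPP1R15A held a cAMP response element and 2 matches of the antioxidant response element core, ATF4 an E-box, and CTSD an E-box and an antioxidant response element core. CEBPB, SESN2, STC2 and FTL held none of the 5 stress motifs in these letters. The shares in all promoter windows of 300 bases were 2.26% for the cAMP response element, 6.15% for the AP-1 site, 2.70% for the composite, 13.8% for the antioxidant core and 8.34% for the E-box. In the 697 windows with the stressed-only pattern they were 3.59%, 4.73%, 1.43%, 14.5% and 10.0%. In the 8951 windows open in all 4 short-list libraries they were 3.32%, 3.17%, 1.32%, 15.1% and 10.3%. The stressed-only windows thus held these motifs about as often as windows open throughout, with AP-1 sites the furthest apart. A match is a string of letters and not a bound site.

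Start windows were available for 15811 genes, of which 484 (3.06%) had the stressed-only and 42 (0.266%) the vehicle-only pattern. Another 5239 (33.1%) had no kept region at the start in any of the 4 libraries. Of 26 integrated stress response genes with a window, 5 were stressed-only and none vehicle-only. These were ATF4, the central transcription factor, CEBPB, which encodes one of its dimer partners, PPP1R15A, which encodes the phosphatase subunit GADD34 that reverses eIF2alpha phosphorylation, SESN2, which encodes a sestrin that restrains mTORC1, and STC2, which encodes a secreted stanniocalcin. A region covered the start in 23 and 23 of the 26 genes in stressed 8 and 9, and in 18 and 16 in vehicle 6 and 7. Over all 15811 genes the counts were 9372 and 9901 against 8549 and 8482, so all genes moved the same way. The longer lists gave 22 and 23 of the 26 in stressed 6 and 7 and 20 in vehicle 8. Over all genes they gave 9833, 10454 and 9436. With 15000 regions per library the stressed-only starts of this list numbered 2, and with regions cut to 100 bp either side of their summit 3. Over all genes the stressed-only starts numbered 933 without stressed 8, 714 without stressed 9, 1069 without vehicle 6 and 1019 without vehicle 7. Those of this list numbered 5, 5, 7 and 5 in the same omissions, so they did not widen as all genes did. By gene ends only STC2, 1 of 32 genes of the list (3.1%), was stressed-only, beside 2.69% of all genes.

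Fold enrichment here is the authors' value at a peak's summit over the background of the same library. It equals the pileup of fragments plus 1 divided by the background plus 1, so it is compressed in a shallow library and is read within a library. The lowest kept folds in stressed 6, stressed 7 and vehicle 8 were 9.43, 6.43 and 9.45. Folds of different libraries printed side by side are therefore not on 1 scale. At the STC2 start the fold was 10.5 in stressed 8 and 4.80 in stressed 9, with no listed peak in vehicle 6 or 7. The longer lists gave 11.3 in stressed 6, 10.2 in stressed 7 and 6.57 in vehicle 8, where the peak ranked outside the first 30000. STC2 therefore had the stressed pattern in both sets of libraries.

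The CEBPB start did the same: 6.06 and 7.20 in stressed 8 and 9, no listed peak in vehicle 6 and 7, then 14.2 and 12.9 in stressed 6 and 7 and a peak of 7.81 outside the kept list of vehicle 8. The region of vehicle 7 near CEBPB (8.69) lay at an end of the gene but not in its start window, so the gene was not stressed-only by its ends. The ATF4 start was 8.26 and 6.40 in stressed 8 and 9 and unlisted in vehicle 6 and 7. Near an end of ATF4 but outside its start window, vehicle 6 and 7 kept regions of 6.70 and 8.07. ATF4 was thus not stressed-only by its ends. In the longer lists the ATF4 start was kept throughout, at 21.4, 14.2 and 18.9 in stressed 6, stressed 7 and vehicle 8, so the contrast did not recur there.

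PPP1R15A and SESN2 behaved like ATF4. The PPP1R15A start was 6.06 and 5.20 in stressed 8 and 9 and unlisted in vehicle 6 and 7. It was kept in all 3 longer lists, at 15.1, 11.9 and 17.3 in stressed 6, stressed 7 and vehicle 8. The SESN2 start was 7.16 and 6.8 in stressed 8 and 9, unlisted in both short vehicle lists, and 11.9 in vehicle 8 against 11.95 and 15 in stressed 6 and 7. Outside the start window but near an end, SESN2 had kept regions of 5.36 and 4.34 in vehicle 6 and 7. PPP1R15A had such a region of 4.34 in vehicle 7, so neither gene was stressed-only by its ends. Of the 5 starts, STC2 and CEBPB had the stressed pattern in the longer lists and ATF4, PPP1R15A and SESN2 were kept in all 3 of them.

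CTSD, which encodes the lysosomal protease cathepsin D, was 1 of 3 listed genes with a vehicle-only start. It was 5.36 and 6.21 in vehicle 6 and 7, against listed peaks of 3.85 and 4.40 just outside the kept lists of stressed 8 and 9. In the longer lists it was kept in stressed 7 (8.01) and not in stressed 6 (7.23) or vehicle 8 (8.22). The vehicle-only pattern of CTSD was thus not seen there. GAD2, a GABA synthesis gene, and PLXNA1, a semaphorin receptor gene, were the other two, and neither had the vehicle pattern in the longer lists.

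**Figure D1:**
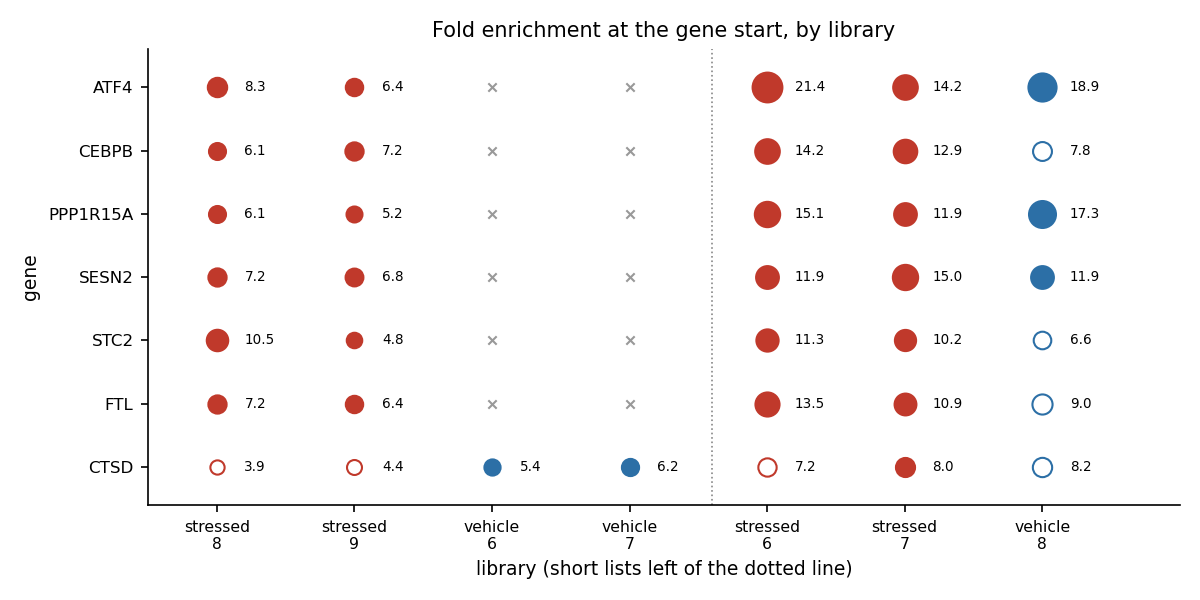
Fold enrichment at the start of 7 genes (rows) in each library (columns). Filled points were among the 30000 regions kept, open points were listed but not kept, crosses were not listed, and point area grows with the printed value. The 6 stressed-only starts have crosses in vehicle 6 and 7, while vehicle 8 holds a filled point for ATF4, PPP1R15A and SESN2.

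Most integrated stress response genes did not separate the treatments by presence. Of 32 genes, 21 were open at an end throughout the 4 short-list libraries, among them DDIT3, which encodes the transcription factor CHOP, CHAC1, which encodes a glutathione-degrading enzyme, and TRIB3, an ATF4 target. At the ends of DDIT3 the fold was 9.36 and 10.0 in stressed 8 and 9 and 10.7 and 10.5 in vehicle 6 and 7. TRIB3 was open throughout, at 9.36 and 12 in stressed 8 and 9 and 4.69 and 6.83 in vehicle 6 and 7. In the longer lists TRIB3 was 30.2 and 16 in stressed 6 and 7 and 9.45 in vehicle 8, the lowest fold kept there. ATF3, FGF21 and NUPR1 had no kept region at an end. Another 6 genes (CEBPB, PPP1R15A, SHMT2, SLC7A11, SLC7A5 and STC2) had one in more stressed than vehicle libraries and 0 in more vehicle libraries. Over all genes 14.4% were open in more stressed and 3.67% in more vehicle libraries, so 6 of 32 (18.8%) is near the background for its direction.

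SLC7A11 and SHMT2 show how the 6 varied. SLC7A11, the cystine importer that feeds glutathione synthesis, was 8.81 and 10.4 at its ends in stressed 8 and 9, 7.37 in vehicle 6 and unlisted in vehicle 7. In the longer lists it was 29.2 in stressed 6 and 18.3 in stressed 7 against 8.63 in vehicle 8, which fell outside the kept list. SHMT2, of mitochondrial one-carbon metabolism, was 7.16 and 9.21 against 5.36 and unlisted, and 35.2 and 21.6 against 10.3 in the longer lists, where all 3 were kept.

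SLC7A5, which encodes the light chain of the large neutral amino acid exchanger, held 3 stressed-only regions among the 7 consensus regions of its 39.5 kb body with 5 kb added on each side. They lay within the gene at chr16:87843986-87844692, chr16:87853609-87854124 and chr16:87860460-87861175. The first had folds of 6.61 and 6.8 in stressed 8 and 9, the second 6.06 and 6.00 and the third 8.81 and 5.20. None was listed in vehicle 6 or 7. All 3 had the stressed pattern in the longer lists as well: folds of 13.2 to 16.4 in stressed 6 and 9.29 to 9.86 in stressed 7, against 8.22, unlisted and 7.81 in vehicle 8.

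Distal regions, those with no gene end within 1 kb, were assigned to the nearest gene within 100 kb. Of 44 such regions nearest to integrated stress response genes, 6 were stressed-only and 1, near ATF3, was vehicle-only. Over all 28356 distal regions within that distance the shares were 4.74% and 2.73%. Beside the 3 in SLC7A5, the 6 comprised 2 near ATF5, which encodes a transcription factor of the mitochondrial unfolded protein response, and 1 near PSAT1, an enzyme gene of serine synthesis. The ATF5 region at chr19:49924017-49924717, within IL4I1 and NUP62, was 5.51 and 6.40 in stressed 8 and 9, 15.1 and 10.6 in stressed 6 and 7, and unlisted in all 3 vehicle libraries. The other ATF5 region, chr19:49937408-49938248, was kept in all 3 longer lists, at 10.7 in vehicle 8. The PSAT1 region at chr9:78291354-78292000 was 5.51 and 7.20, then 9.43 and 6.58, with a peak of 7.40 outside the kept list of vehicle 8.

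Antioxidant genes were open at an end in every stressed library. All 20 genes of the NRF2 list had a kept region in stressed 8 and 9 against 16 and 16 in vehicle 6 and 7, a difference of 20.0 percentage points beside 6.5 for all genes (exact permutation p = 0.33, two-sided, n = 2 and 2). The longer lists gave 20, 20 and 17. The exact test has 6 assignments of 2 against 2 and cannot go below 0.33, so none of these comparisons can pass a usual threshold. FTL and TXNRD1 were stressed-only at an end, HMOX1, KEAP1, SLC7A11 and SRXN1 were open in both stressed and 1 vehicle library, and the other 14 were open in all 4. These 6 of 20 (30%) stand beside 14.4% of all genes. Over all genes, 6592 of 19970 had no kept region at an end in any of the 4 libraries, against 0 of this list. Those shares therefore rest on unlike bases.

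FTL encodes the light chain of ferritin, which stores iron. Its start region, chr19:48964802-48966255, was 7.16 and 6.40 in stressed 8 and 9 and unlisted in vehicle 6 and 7, then 13.5 and 10.9 in stressed 6 and 7 with a peak of 9.04 just outside the kept list of vehicle 8. TXNRD1 encodes cytosolic thioredoxin reductase. Its stressed-only region, chr12:104215685-104215987, was 6.61 and 5.20, unlisted in vehicle 6 and 7, and 14.5, 7.58 and 6.16 in stressed 6, stressed 7 and vehicle 8, the last not kept. A start window of TXNRD1 held a kept region in every library, vehicle 6 and 7 included, so the gene was not stressed-only by its start. FTL kept its pattern under every alternative except 15000 regions per library, and TXNRD1 under every one except that and promoter windows.

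HMOX1, the heme oxygenase gene and a classical NRF2 target, was 9.36 and 12 in stressed 8 and 9, 6.70 in vehicle 6 and unlisted in vehicle 7, and was kept in all 3 longer lists. Distal stressed-only regions lay 4131 bp from FTH1, the ferritin heavy chain gene, and 3603 bp from SRXN1, which encodes sulfiredoxin. The FTH1 region was 4.96 and 6.8 in stressed 8 and 9 and unlisted in vehicle 6 and 7. It was 17.9 and 11.3 in stressed 6 and 7 against 6.16 in vehicle 8. The SRXN1 region was 8.26 and 4.80 against 4.02 and unlisted, and 10.7 and 6.58 against 6.57. Both had the stressed pattern in the longer lists.

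Mitophagy genes tag and remove damaged mitochondria. Of 20, 17 and 18 were open at an end in stressed 8 and 9 and 15 and 15 in vehicle 6 and 7. Over all genes the shares were 59.0% and 61.3% against 52.8% and 54.4%. The longer lists gave 19, 19 and 17 of the 20. The 5 genes open in more stressed libraries (25%) were MUL1, PINK1, RHOT1, RHOT2 and SQSTM1, and FKBP8 was open in more vehicle libraries (5%). Over all genes these shares were 14.4% and 3.67%. MUL1, a mitochondrial ubiquitin ligase gene, was stressed-only at 6.06 and 7.20, but vehicle 8 kept it at 9.86 beside 10.1 and 6.86 in stressed 6 and 7. PINK1, which encodes the kinase that recruits Parkin, was kept in stressed 8 (6.06) and listed but not kept in stressed 9 (4.00) and vehicle 6 (4.02). The autophagy receptor gene SQSTM1 was 6.61 and 7.6 against 6.70 and unlisted. FKBP8, a mitophagy receptor gene, went the other way: it was kept in stressed 9, vehicle 6 and vehicle 7 and unlisted in stressed 8.

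Across the 23 gene lists, which hold 458 genes, 22 had more members open at an end in the stressed libraries on average and 1, the list of endoplasmic reticulum stress genes, had as many. All genes moved the same way, and 15 lists exceeded the difference over all genes. In the longer lists 17 of the 23 were higher in the stressed libraries. The lists of innate and inflammatory genes and of AMPK, mTOR and sestrin genes went from +11.4 and +6.2 percentage points in the short lists to -4.5 and -4.2 in the longer ones. Among listed genes, 15 had a stressed-only end and 3 (GAD2, CTSD and UNC13A) a vehicle-only end. These are 3.28% and 0.655% of the 458 genes beside 2.69% and 0.31% of all genes, so the stressed-only count is near the background.

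Of the 15 listed genes with a stressed-only end, 4 (STC2, FTL, TXNRD1 and PDGFRB) had the stressed pattern in the longer lists. The share was 19.6% of all genes with a stressed-only end and 17.6% of genes open in 1 stressed and 1 vehicle library. FOSL1, an AP-1 gene, LAMP1, a lysosomal membrane gene, FASN, the fatty acid synthase gene, MUL1, HES1 and SLC17A7, a glutamate transporter gene, were kept in all 3 longer lists. The FOSL1 end was 5.51 and 6.40 in stressed 8 and 9, unlisted in vehicle 6 and 7, and 16, 9.86 and 14 in stressed 6, stressed 7 and vehicle 8. FOSL1 lost the pattern with 15000 regions, a −log10 q of at least 5, summit windows, and gene-end windows of 100 or 2500 bp. DBH, VAMP2 and GADD45B were kept in none of the 3, MKI67 in stressed 7 and vehicle 8, and TSC1, an mTORC1 inhibitor gene, was kept in vehicle 8 (9.45) and not in stressed 6 (7.23) or stressed 7 (6.29).

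**Figure D2:**
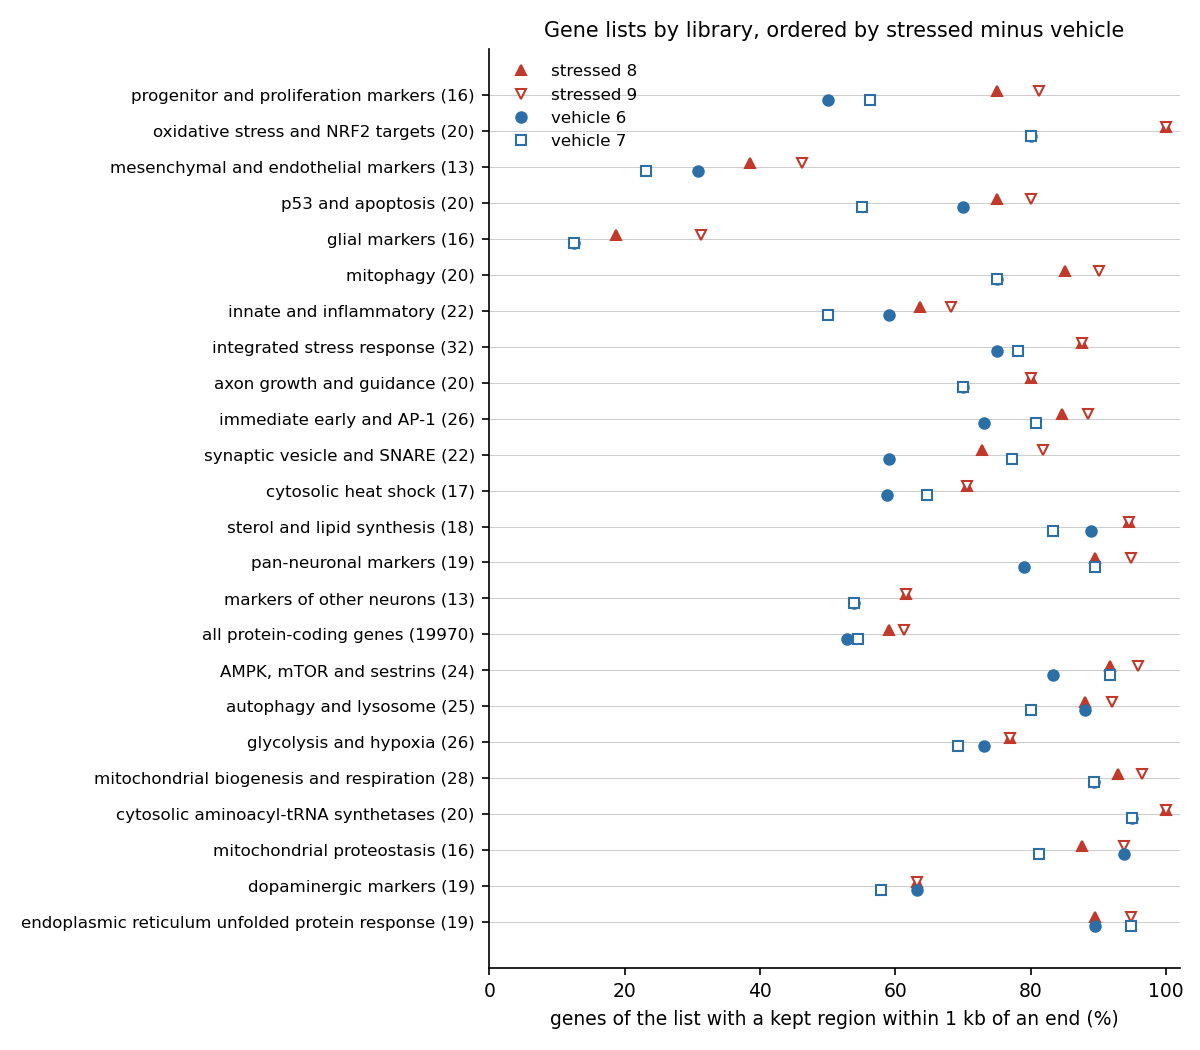
Share of each list's genes with a kept region within 1 kb of an end (horizontal axis, %) in the 4 short-list libraries, with the number of genes in parentheses. The NRF2 list lies at 100% in both stressed libraries and 80.0% in both vehicle libraries, and the row for all protein-coding genes shows the difference shared by genes at large.

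The identity checks moved with these groups or against the label. Progenitor and proliferation markers had the largest difference of the 23 lists, 12 and 13 of 16 against 8 and 9, with HES1, a Notch effector gene, and MKI67, a proliferation marker, stressed-only at an end. The longer lists gave 11, 14 and 12. Mesenchymal and endothelial markers were at 5 and 6 of 13 against 4 and 3 through PDGFRB, COL1A1 and PRRX1, and 7 of their 13 genes, including the defining DCN, LUM, PECAM1 and CDH5, had no kept region in any of the 4. KDR, ACTA2 and TWIST1 of the same list were kept in all 4. Glial markers were at 3 and 5 of 16 against 2 and 2, with GFAP, SOX10 and AIF1 at 0, OLIG2 kept in all 4, and PDGFRA and MBP kept in both stressed and 1 vehicle library. The part of other cell types in the stress gene counts was not tested.

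The labelled dopaminergic identity was only partly visible at gene ends. Of 19 markers, 12 and 12 were open in stressed 8 and 9 and 12 and 11 in vehicle 6 and 7. NR4A2, PITX3, EN1 and RET were open in all 4. TH, the tyrosine hydroxylase gene that dopamine synthesis depends on, and the vesicular transporter gene SLC18A2 had no kept region in any library. The deposited lists held a TH peak in stressed 8 (4.41) and none in stressed 9, vehicle 6 or vehicle 7, and in the longer lists peaks in stressed 6 (5.03) and stressed 7 (4.43) and none in vehicle 8. Pan-neuronal markers were open in 17 and 18 of 19 against 15 and 17.

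Over all genes, 1308 more genes were open at an end in the stressed libraries: 11790 and 12244 in stressed 8 and 9 against 10548 and 10870 in vehicle 6 and 7 (12017 ± 321 and 10709 ± 228, SD, n = 2 each, exact permutation p = 0.33, two-sided). The share of kept regions at a gene end was 37.8% and 37.4% against 32.6% and 35.7%, a difference of 3.50 percentage points (exact permutation p = 0.33, two-sided, n = 2 and 2). The groups did not overlap in either measure. The difference in share went to 1.93 without vehicle 6, to 6.24 with 15000 regions per library, to 1.13 with a −log10 q of at least 5, and turned to -2.44 percentage points in the lists as deposited. Depth and region width moved with treatment. The background was 0.816 and 1.5 fragments in the stressed and 0.492 and 0.611 in the vehicle libraries, and the median width of kept regions 523 and 777 bp against 511 and 345 bp. Their part in the counts was not tested.

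The lower limit of the kept lists fell at a pileup of 7, 11, 6 and 6 fragments in stressed 8, stressed 9, vehicle 6 and vehicle 7, with folds of 4.41, 4.80, 4.69 and 4.34. The next lower regions, just outside, had pileups of 6, 10, 5 and 5, 1 fragment fewer. Stressed-only regions had a median pileup of 9 in stressed 8 and 13 in stressed 9, and vehicle-only regions of 8 in both vehicle libraries, so most members stood a few fragments above the limit. Of the 2208 stressed-only regions, 1539 (69.7%) had no deposited peak in vehicle 6 or 7, and of the 1296 vehicle-only regions 646 (49.8%) had none in stressed 8 or 9. The list of vehicle 7 was the shortest, and 91.4% of it was kept, against 54.0% to 56.5% in the other 3.

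Library pairs showed that the 2 vehicle libraries were not alike. Stressed 8 and 9 shared 53.1% of their joint regions, the highest of the 6 pairs, and vehicle 6 and 7 shared 44.8%, the lowest. Stressed 9 with vehicle 6 shared 49.0%. The number of regions found in that mixed pair alone, 1713, exceeded the 1296 vehicle-only regions, and the other 3 mixed pairs had 775 to 1028. The stressed-only class, at 2208, was larger than each of the 4 mixed pairs.

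The longer lists give a look at these classes in libraries that did not choose them. Stressed-only regions were among the 30000 kept of stressed 6 in 66.0%, of stressed 7 in 77.1% and of vehicle 8 in 48.6%, a difference of 23 percentage points. Vehicle-only regions were kept in 41.0%, 47.4% and 60.6%, a difference of -16.5. Each class leaned to its own treatment in these lists (exact permutation p = 0.33 for each, two-sided, with n of 2 against 1; 3 assignments allow no lower value). Regions found in 1 stressed and 1 vehicle library, the class also found in 2 of the 4 libraries, were kept in 56.1%, 65.4% and 54.9%, a difference of 5.86 (exact permutation p = 0.667, two-sided, n = 2 and 1). For all consensus regions the difference was 3.22. Without stressed 8 or stressed 9 in the choice of regions, the 23 went to 15.1 and 11.9. The -16.5 went to -7.38 without stressed 9, -2.27 without vehicle 6 and -7.77 without vehicle 7. With regions cut to 100 bp either side of their summit, the differences were 15.3 for stressed-only and -13.3 for vehicle-only regions. Depth and width differed in the longer lists as well. The background was 2.18 and 5.99 fragments in stressed 6 and 7 and 1.43 in vehicle 8. The median width of kept regions was 959 and 1504 bp against 914 bp. Their part in the lean was not tested. The lean depended on the length of the lists: in the lists as deposited the differences were 6.76 and 2.55, and with a −log10 q of at least 5 they were 2.16 and 0.0916, so the vehicle-only direction turned in both.

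The full stressed pattern in the longer lists, kept in stressed 6 and 7 and not in vehicle 8, was met by 445 stressed-only regions (20.2%), 478 of 4471 regions from mixed pairs (10.7%) and 53 vehicle-only regions (4.09%). The background over all consensus regions was 5.61%. The full vehicle pattern was met by 227 vehicle-only regions (17.5%), 5.82% of the mixed class and 1.95% of the stressed-only class, beside 3.67% of all. Thus 445 regions separated 4 stressed from 3 vehicle libraries and 227 the reverse. As deposited, nearly all regions of both classes had a listed peak in each longer list, so these patterns describe rank and not presence.

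Regions were also split by distance from genes. Among distal regions the stressed pattern recurred in 19.9% of the stressed-only class and 9.5% of the mixed class, and the vehicle pattern in 18.0% of the vehicle-only class and 6.42% of the mixed class. At gene ends the stressed pattern recurred in 21.0% of stressed-only and 17.8% of mixed regions, and the vehicle pattern in 10.1% of vehicle-only (8 of 79) and 2.18% of mixed regions. By genes, 105 of 537 with a stressed-only end (19.6%) had the stressed pattern in the longer lists, beside 17.6% of genes from mixed pairs and 3.56% of all genes. Of 62 genes with a vehicle-only end, 4 (6.45%) had the vehicle pattern there and 4 (6.45%) the stressed pattern. The vehicle pattern was met by 1.53% of genes from mixed pairs and 0.421% of all genes, against 17.6% and 3.56% for the stressed pattern. With 4 genes in each direction these shares are only a description. Leaving stressed 8 or stressed 9 out of the choice took the distal difference of stressed-only over mixed regions from 10.4 to 1.31 and 0.72 percentage points, and leaving out vehicle 6 to 6.85. At gene ends the same difference was 3.17 and ranged from 1.39 to 4.36 over these omissions, so the distal difference was not the larger one without stressed 8 or stressed 9. That of vehicle-only regions at gene ends was 7.94 and ranged from 1.56 to 4.7. The distal difference of vehicle-only over mixed regions was 11.6 and went to 7.23 without stressed 9, 0.76 without vehicle 6 and 4.68 without vehicle 7.

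**Figure D3:**
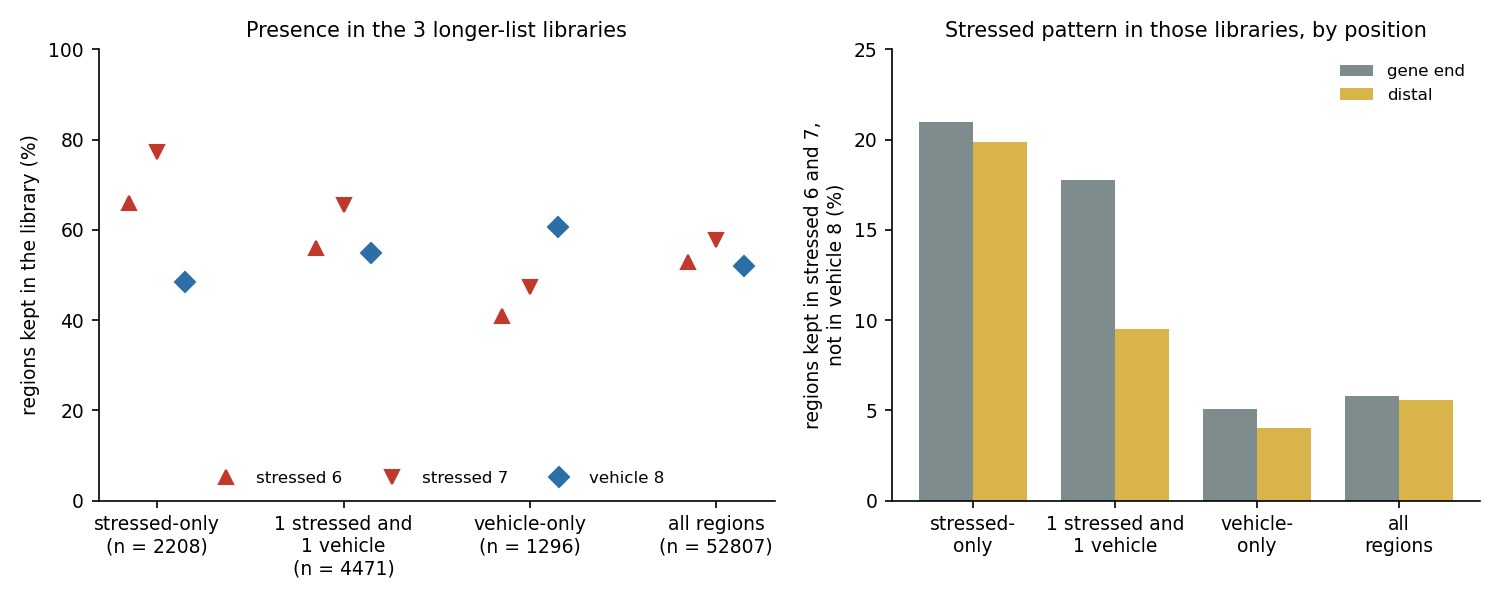
Left, percent of the stressed-only, mixed, vehicle-only and all consensus regions that was among the 30000 kept in stressed 6, stressed 7 and vehicle 8. Right, percent with the stressed pattern in those 3 libraries, for regions at gene ends and distal regions. Among these 4 sets the stressed-only class lies highest in the stressed libraries (66.0% and 77.1%) and lowest in vehicle 8 (48.6%), and the gap to the mixed class is wider for distal regions.

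The strongest distal stressed-only regions gave large values in the longer lists too. UNC5B encodes a netrin receptor of axon guidance. Its region at chr10:71265744-71266993, within the gene and 35871 bp from an end, was 12.1 and 9.21 in stressed 8 and 9, unlisted in vehicle 6 and 7, and 34.9, 26.2 and 6.16 in stressed 6, stressed 7 and vehicle 8. The region within TRIM66, nearest to RPL27A (chr11:8657762-8659113), was 10.5 and 13.2, unlisted in vehicle 6 and 7, and 31.4, 22.7 and 6.16. The region 10338 bp from C19orf12, a gene mutated in neurodegeneration with brain iron accumulation (chr19:29687200-29688548), was 9.91 and 10.8, then 15.7 and 14.7, and was listed in none of the 3 vehicle libraries.

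Of the 10 strongest distal stressed-only regions, 6 had the stressed pattern in the longer lists: those nearest to RPL27A, C19orf12, UNC5B, RNF212, HAPSTR1 and SLX4IP. Of all distal stressed-only regions 19.9% had it, and of distal regions from mixed pairs 9.50%. The other 4, nearest to SSH3, CDK5RAP2, LOC124900476 and C1QTNF3, were kept in vehicle 8 at 13.1 to 17.7. In vehicle 6, the regions near SSH3, HAPSTR1 and SLX4IP had weak listed peaks of 3.35, 4.69 and 4.02, below its limit or at it.

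The 10 strongest distal vehicle-only regions were narrower. They lay nearest to ERC2, POU3F2, ELP4, RGS1, PDE11A, OGFRL1, MPHOSPH6, DYRK1A, GABRB1 and SGMS1, and were 252 to 619 bp wide against 620 to 1352 bp for the stressed-only ones. The medians of the whole classes were 459 and 710 bp. Kept regions had medians of 511 and 345 bp in vehicle 6 and 7 and 523 and 777 bp in stressed 8 and 9. The part of library width in this difference was not tested. The region nearest to POU3F2, a neuronal transcription factor gene (chr6:98137428-98137752, 696822 bp away), was 11.4 and 11.2 in vehicle 6 and 7 and unlisted in stressed 8 and 9. In the longer lists it was 33.7 in vehicle 8 and 18.2 and 11.4 in stressed 6 and 7, all kept. The region within ERC2, which encodes a presynaptic active zone protein (chr3:55537978-55538533), was 14.1 and 12.4, against peaks of 3.85 and 4.00 outside the kept lists of stressed 8 and 9, and 19.3, 11.9 and 8.86 in vehicle 8, stressed 6 and stressed 7.

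None of these 10 had the vehicle pattern in the longer lists, since stressed 6 kept all 10 and stressed 7 kept 9. Of all distal vehicle-only regions 18.0% had it. In stressed 8 and 9, 8 of the 10 were unlisted, and ERC2 and RGS1 had listed peaks outside the kept lists.

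**Figure D4:**
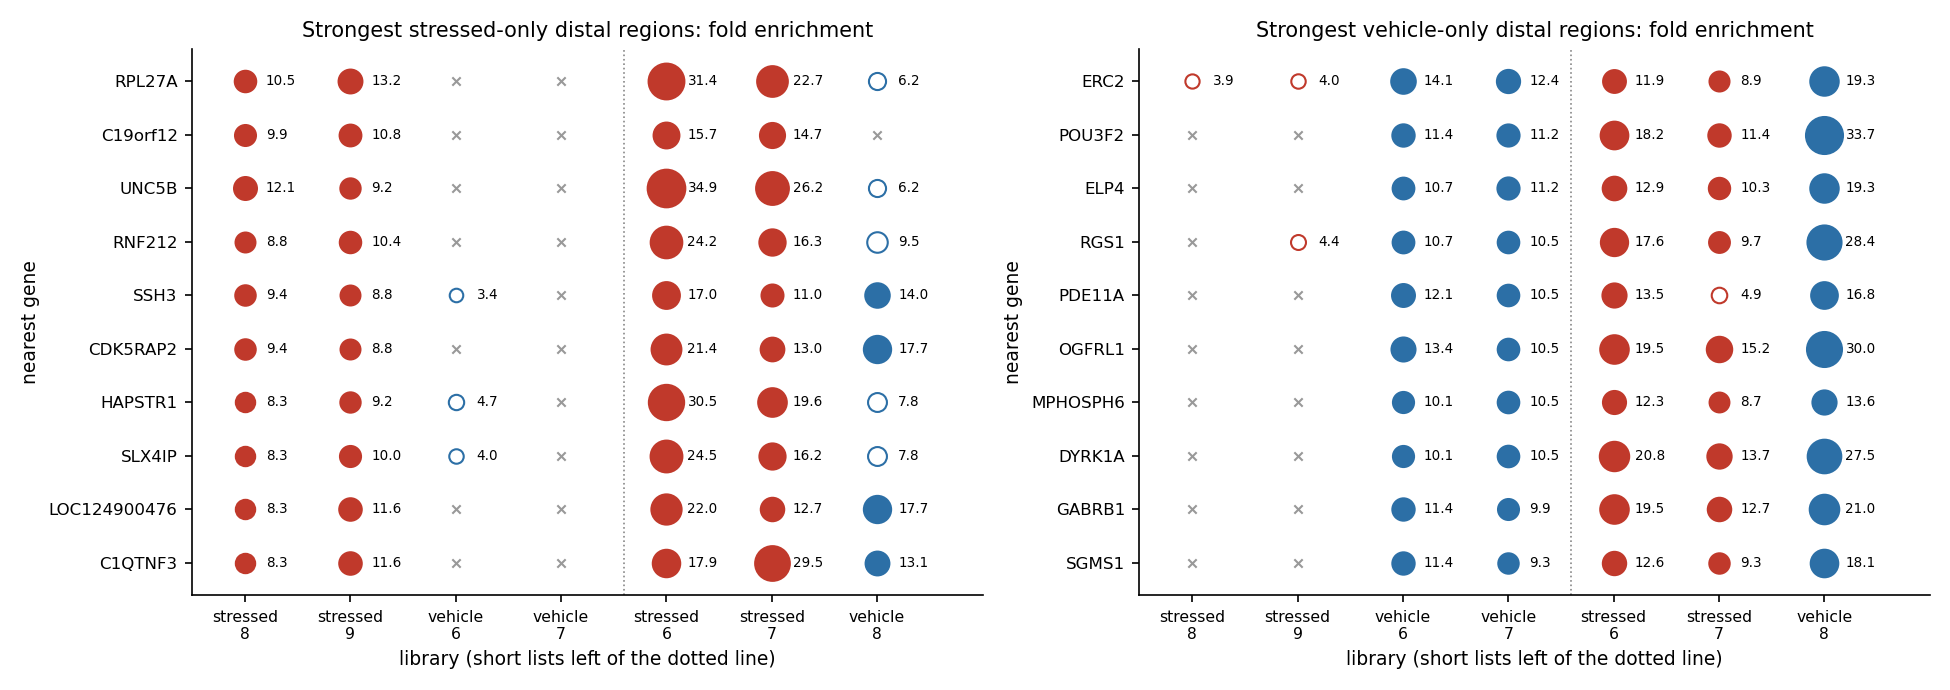
Fold enrichment of the 10 strongest stressed-only (left) and vehicle-only (right) distal regions in each library, named by nearest gene. Filled points were kept, open points were listed but not kept, crosses were not listed, and point area grows with the printed value. Crosses fill stressed 8 and 9 on the right except at ERC2 and RGS1, but stressed 6 and 7 hold filled points there except stressed 7 at PDE11A.

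Near listed genes, 59 distal regions at 50 genes were stressed-only and 27 at 26 genes vehicle-only, of 981 distal regions. Their shares, 6.01% and 2.75%, stand beside 4.74% and 2.73% of all distal regions within that distance. The stressed pattern recurred in the longer lists for 21 of the 59 and the vehicle pattern for 4 of the 27, beside 19.9% and 18.0% of all distal regions of each class, so the vehicle-only ones did not exceed theirs. Beside SLC7A5, ATF5, PSAT1, FTH1, SRXN1 and UNC5B, the 21 included regions near IRF1, an interferon regulatory factor gene, FOSL2 of the AP-1 family, BBC3, which encodes the apoptosis protein PUMA, HERPUD1 of endoplasmic reticulum stress, TFE3 of lysosomal biogenesis, EEF2K, the elongation factor 2 kinase gene, and DDC, the aromatic amino acid decarboxylase gene. The IRF1 region at chr5:132459193-132460184 was 5.51 and 6.8 in stressed 8 and 9, 23.3 and 13.3 in stressed 6 and 7, and unlisted in all 3 vehicle libraries. The EEF2K region at chr16:22291921-22292604 was 8.26 and 8.00, then 17.9 and 12.3, with a peak of 3.29 in vehicle 8.

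The 4 vehicle-only regions with the vehicle pattern throughout lay near AQP4, IER5, SLIT1 and SV2C. SLIT1 encodes an axon repellent. Its region, chr10:97150157-97150648, within the gene, was 10.7 and 6.83 in vehicle 6 and 7 and 13.1 in vehicle 8, unlisted in stressed 8 and 9, and 8.18 and 5.29 outside the kept lists of stressed 6 and 7. SV2C encodes a synaptic vesicle protein. Its region, chr5:76341969-76342419, was 6.03 and 6.83 in vehicle 6 and 7, 11.1 in vehicle 8 and unlisted in stressed 8 and 9. It was 8.49 and 6.29 in stressed 6 and 7, again below their limits. IER5, an immediate early gene, had a stressed-only region 3436 bp from an end that showed the vehicle pattern in the longer lists, so its nearby regions did not keep 1 direction.

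Gene ends outside the lists gave the highest stressed-only folds at OSBPL3, which encodes an oxysterol-binding protein, ELAPOR1, FLNC, which encodes filamin C, RACK1, a ribosomal scaffold gene, CHMP1B, MXRA7, ARHGEF17, the shared region of MTX3 and THBS4, and AOPEP. The OSBPL3 end was 12.1 and 13.6 in stressed 8 and 9 and unlisted in vehicle 6 and 7, but 27.9 in vehicle 8 against 35.2 and 27.7 in stressed 6 and 7. All 10 of these genes were kept in vehicle 8, at 10.3 to 27.9. A single region near an end of EGFLAM, chr5:38466282-38467765, picked after its values were seen, did recur. It was 14.9 and 9.61 in stressed 8 and 9, 3.35 and not kept in vehicle 6, unlisted in vehicle 7, and 32.7, 19.2 and 4.11 in stressed 6, stressed 7 and vehicle 8. EGFLAM was not stressed-only as a gene. The vehicle-only ends with the highest folds included those of MREG, RHBDD2, CDH8, KXD1, PRIM1, CHRM2, PID1, FLT3 and CHRNA10. MREG, a melanosome transport gene, was 8.04 and 9.93 in vehicle 6 and 7, unlisted in stressed 8 and 9, and 23.8 in vehicle 8 against 6.92 in stressed 6 and 6.29 in stressed 7. Start windows of MREG and of OSBPL3 held a kept region in every library, so these patterns did not hold at their starts.

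Position and base composition went with direction. Gene ends took 563 stressed-only regions (25.5%), with 41.8% elsewhere within a gene and 32.7% between genes, while 79 vehicle-only regions (6.10%) lay at a gene end and 51.9% between genes. Regions from 1 stressed and 1 vehicle library were at a gene end in 14.3%, between the other two classes, and all consensus regions, which include those open in all 4 libraries (56.0%), in 24.8%. Promoter windows with the stressed-only pattern had a median GC content of 68.0%, against 66.0% for windows open in all 4 libraries, 56.2% for vehicle-only and 62.3% for all windows. Windows of at least 70% GC held a region in 72.6% and 78.1% in stressed 8 and 9 and in 62.2% and 63.5% in vehicle 6 and 7. The longer lists gave 75.8%, 83.0% and 71.8%. Windows under 50% GC gave 11.5% and 14.7% against 12.5% and 9.31%, where the groups overlapped. CCAAT boxes, CCAAT on either strand, were in 23.1% of stressed-only windows, 39.4% of those open in all 4 and 34.6% of all.

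Chromosomes differed accordingly. Of the regions that were stressed-only or vehicle-only, the stressed-only share was 89.0% on chromosome 17, 87.9% on 22 and 85.7% on 19, and 41.2% on X and 48.7% on 3 and 4. The longer lists gave 74.8%, 76.8% and 84.8% on 17, 22 and 19 for the corresponding patterns, and 58.6%, 48.7% and 53.2% on X, 3 and 4. Across 23 chromosomes, which share libraries and differ in gene density and GC content, this share was higher with the percent of regions at gene ends (Pearson r = 0.74, Spearman rho = 0.62, and 0.50 and 0.38 in the longer lists), given as a description. Among distal regions alone it was 82.4% on 17, 19 and 22 (182 against 39) and 57.5% over all chromosomes. The excess on these chromosomes was therefore present away from gene ends too.

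**Figure D5:**
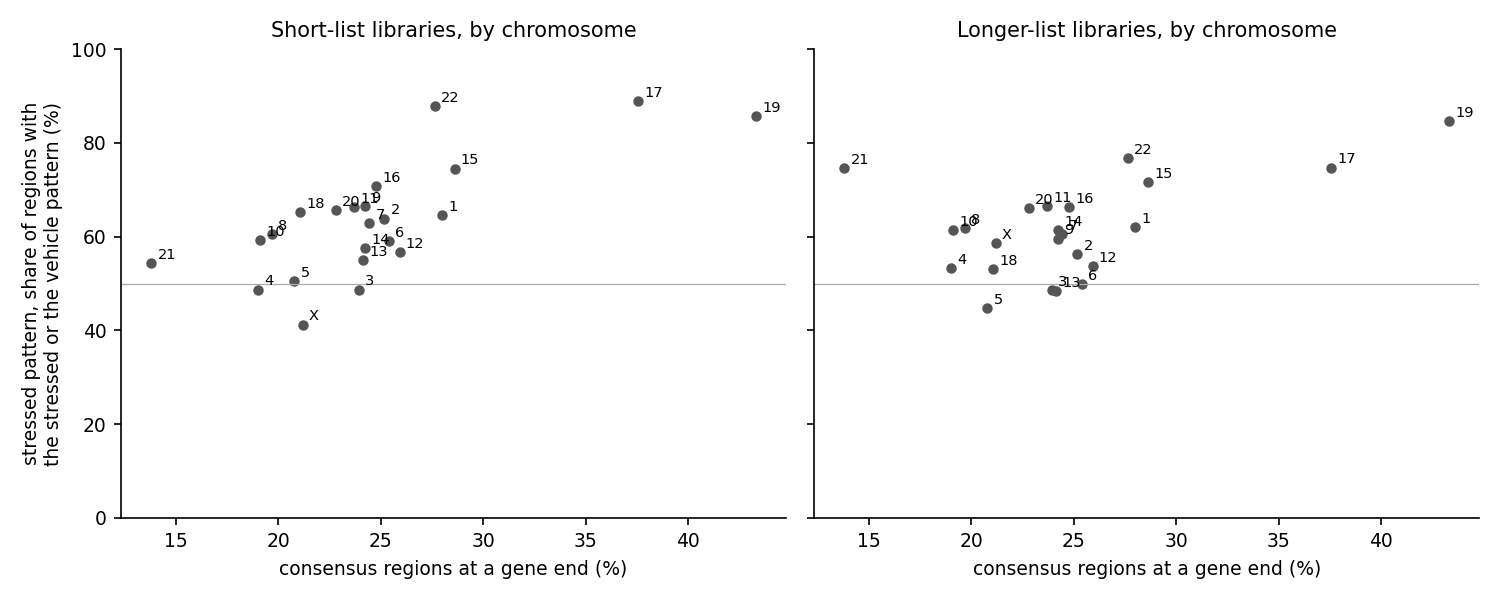
Each point is 1 of 23 chromosomes: the percent of its consensus regions at a gene end (horizontal axis) and the share with the stressed pattern among regions with either pattern (vertical axis, %), in the 4 short-list libraries (left) and the 3 longer-list libraries (right). Chromosomes 17, 19 and 22 lie at 85.7% to 89.0% on the left, and the grey line marks 50%.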

How the data were processed

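ATAC-seq peaks of LUHMES neurons were used as deposited. The labels' protocols describe Tn5 treatment of nuclei and PCR. The submitters' processing notes name Bowtie2, Picard, FastQC and hg38. Each library has its own list of MACS2 peaks, per the file headers. The settings of MACS2 and any shift for Tn5 were not given in the sources used here. The authors deposited 4 values per peak: a score, a fold enrichment (ratio), a −log10 q-value and a −log10 p-value. With a tolerance of 0.02, 100% of folds gave a whole pileup over 1 background per library, a measure of relative depth, since read totals were not used here.

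Overlapping peaks of a library were merged (autosomes and X), and the 30000 of highest fold kept (ties: wider, then position). Ties at the limit numbered 9516, 4651, 8362 and 5680 in stressed 8, stressed 9, vehicle 6 and vehicle 7. Lists were merged, and presence was an overlap of 1 bp. Gene ends came from RefSeq on GRCh38.p14, which gives no strand, so windows of 1000 bp around either end were used. Strand-aware start windows, from 250 bases before to 50 after the start, were added after seeing the data and covered 15811 genes. The members and gene lists were chosen with earlier results of these data known. Named were list genes with a stressed-only or vehicle-only end, the 10 strongest other ends and distal regions per direction by the lower fold, list genes nearest to such regions, and a panel of stress and dopaminergic genes. Other names were chosen after their values were seen. Groups were compared by exact permutation over libraries, two-sided. Each p-value is the share of label assignments with a difference at least as large. The units are single differentiations of 1 line, so a p-value cannot separate treatment from differentiation. Overlap functions were tested on simulated data and against bedtools. Python 3.11.15, numpy 2.4.6, pandas 2.3.3, scipy 1.17.1 and matplotlib 3.10.9 were used.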

Additional observations from a re-analysis of the deposited data

How the results depend on the processing

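With lists as deposited there were 5028 stressed-only regions, 814 stressed-only and 41 vehicle-only gene ends. The share at gene ends reversed to -2.44 percentage points and vehicle-only carry-over to 2.55, and stressed-only carry-over was 6.76. With −log10 q of at least 5 there were 546 vehicle-only regions and 23 vehicle-only ends, with carry-over of 2.16 for stressed-only and 0.0916 (reversed) for vehicle-only regions. The cause was not tested. With 15000 regions there were 1003 stressed-only and 800 vehicle-only regions, and vehicle-only carry-over was -31.6. With absence meaning no deposited peak there were 646 vehicle-only regions, 334 stressed-only and 18 vehicle-only ends, and vehicle-only carry-over was -21.9. Leaving out 1 library, which loosens the pattern, gave 3925 to 8669 stressed-only and 1980 to 8101 vehicle-only regions, 949 to 1315 and 124 to 284 gene ends, and carry-over of 11.9 to 19.1 and -12.4 to -2.27. Over these omissions the share at gene ends stayed at 1.9 to 5.1 points and the gene difference at 1081 to 1535.

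Beyond 1-and-1 regions, the excess of the stressed pattern at gene ends was -0.418 points in the lists as deposited, and that of the vehicle pattern -0.583 there, -0.141 with 15000 regions and -0.138 with −log10 q of at least 5. Heat shock genes turned to -0.5 genes with 15000 regions, and mitochondrial proteostasis genes ranged from -0.5 without vehicle 7 to 1.5 without vehicle 6. Ranking by −log10 p kept the same 30000 regions, since each fold in a library has 1 p-value. Promoter windows, chosen after seeing the data, gave a difference of 1121 genes. No paired analysis was possible because the stressed and vehicle libraries compared share no differentiation number. Depth is low: the kept limit was 6 to 11 fragments.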

Other observations

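Within gene bodies, counted with 5 kb added on each side, stressed-only regions gathered at a few loci that the lists did not hold. KANK1, a regulator of actin, had 4 of 18 consensus regions in this class and SEPTIN9, a cytoskeletal septin gene, 4 of 17, both with 0 vehicle-only regions. LRP5, which encodes a Wnt co-receptor, had 3 of 4. CMIP held both kinds, 4 stressed-only and 3 vehicle-only of 31. Genes with 3 vehicle-only regions included APP, EPHB1, GRIN2B, KIAA1217, NRG3, PCSK5 and RGS3. Of these, APP also held 2 stressed-only regions among its 8, and EPHB1 held 1 among its 35. Over all consensus regions 4.18% were stressed-only and 2.45% vehicle-only. Long genes held either kind: NRG3 spans 1112 kb with 3 vehicle-only of 7, and KAZN 1225 kb with 3 stressed-only of 8. These loci were picked for their counts and are not tested.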
